A study of Caenorhabditis elegans with 2 samples.

Results

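EFL-1 peaks were examined at 7 genes of the heterochronic pathway, lin-14, lin-28, lin-29, lin-42, lin-46, hbl-1 and daf-12, out of 19973 protein-coding genes on the 6 nuclear chromosomes. The genes were taken by name, with earlier results of these data known. A peak was assigned to one of them when its summit, the base of the authors' strongest signal, lay between 2000 bp upstream of the annotated gene start and the gene end, which is called the interval here. The binding of EFL-1, a transcription factor of the E2F family, was mapped with an anti-EFL-1 antibody by chromatin immunoprecipitation and sequencing (ChIP-seq). The material was whole hermaphrodite larvae of the wild-type strain N2 in the L1 stage, the first larval stage, grown at 26 °C. The single group held 2 biological replicates from separate biosamples, and there was no second condition. The set of 4835 peaks that the authors thresholded by the irreproducible discovery rate (IDR) is called the IDR set, and it was identical to the 4835 highest-scoring of 30000 peaks called on the pooled reads. Separate lists of 28817 peaks for replicate 1 and 30000 for replicate 2 gave each replicate's own score. The scores are the authors' peak scores, whose scale is not stated, so levels were compared within a list. Between the replicate lists only ranks, and each summit's score ratio relative to the ratios of all IDR peaks, were compared. Read depth is not known from these lists. All cells of the larvae were assayed together, so binding in few cells and weak binding in many cannot be told apart.

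Heterochronic genes set the order of developmental events through the larval stages of C. elegans. In the lateral hypodermis they decide which pattern of cell division a cell follows in each stage, and when it stops dividing and makes adult cuticle. LIN-14 and HBL-1 are transcription factors and LIN-28 an RNA-binding protein that promote early fates and are switched off by microRNAs and other regulators as larvae age. LIN-46, a protein related to gephyrin, opposes HBL-1; DAF-12 is a nuclear hormone receptor for dafachronic acids; LIN-42 is related to the Period proteins of circadian clocks; and the zinc finger factor LIN-29 triggers the switch to adult fate. E2F factors are known mainly for control of cell division genes.

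Of the 7 genes, 5 had at least 1 IDR summit in the interval, and they carried 10 in all. Most of these summits did not lie at the annotated start of the gene they were assigned to. Both lin-46 summits lay in the promoter window of a neighbouring gene, and 1 lin-28 summit lay 12 bp upstream of a second transcript start. Introns held 6, positions further upstream than 500 bp held 3, and the promoter window, from 500 bp upstream to 200 bp downstream of the gene start, held 1, at lin-14. No IDR summit lay in an exon of these genes. The genes lin-29 and hbl-1 had none. Among all protein-coding genes, 26.6% had an IDR summit in the interval and 15.2% had one in the promoter window. Of the genes with an IDR summit in the interval, 43% had none in the promoter window, as was so for 4 of the 5 heterochronic genes with a summit. That share was not matched for interval length. In the longest of 10 length classes, which holds lin-14, lin-42 and daf-12, 45.4% had a summit in the interval and 19.2% in the promoter window. Of all 4835 IDR peaks, 2401 lay in promoter windows and 1057 in gene bodies outside them.

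**Figure D1:**
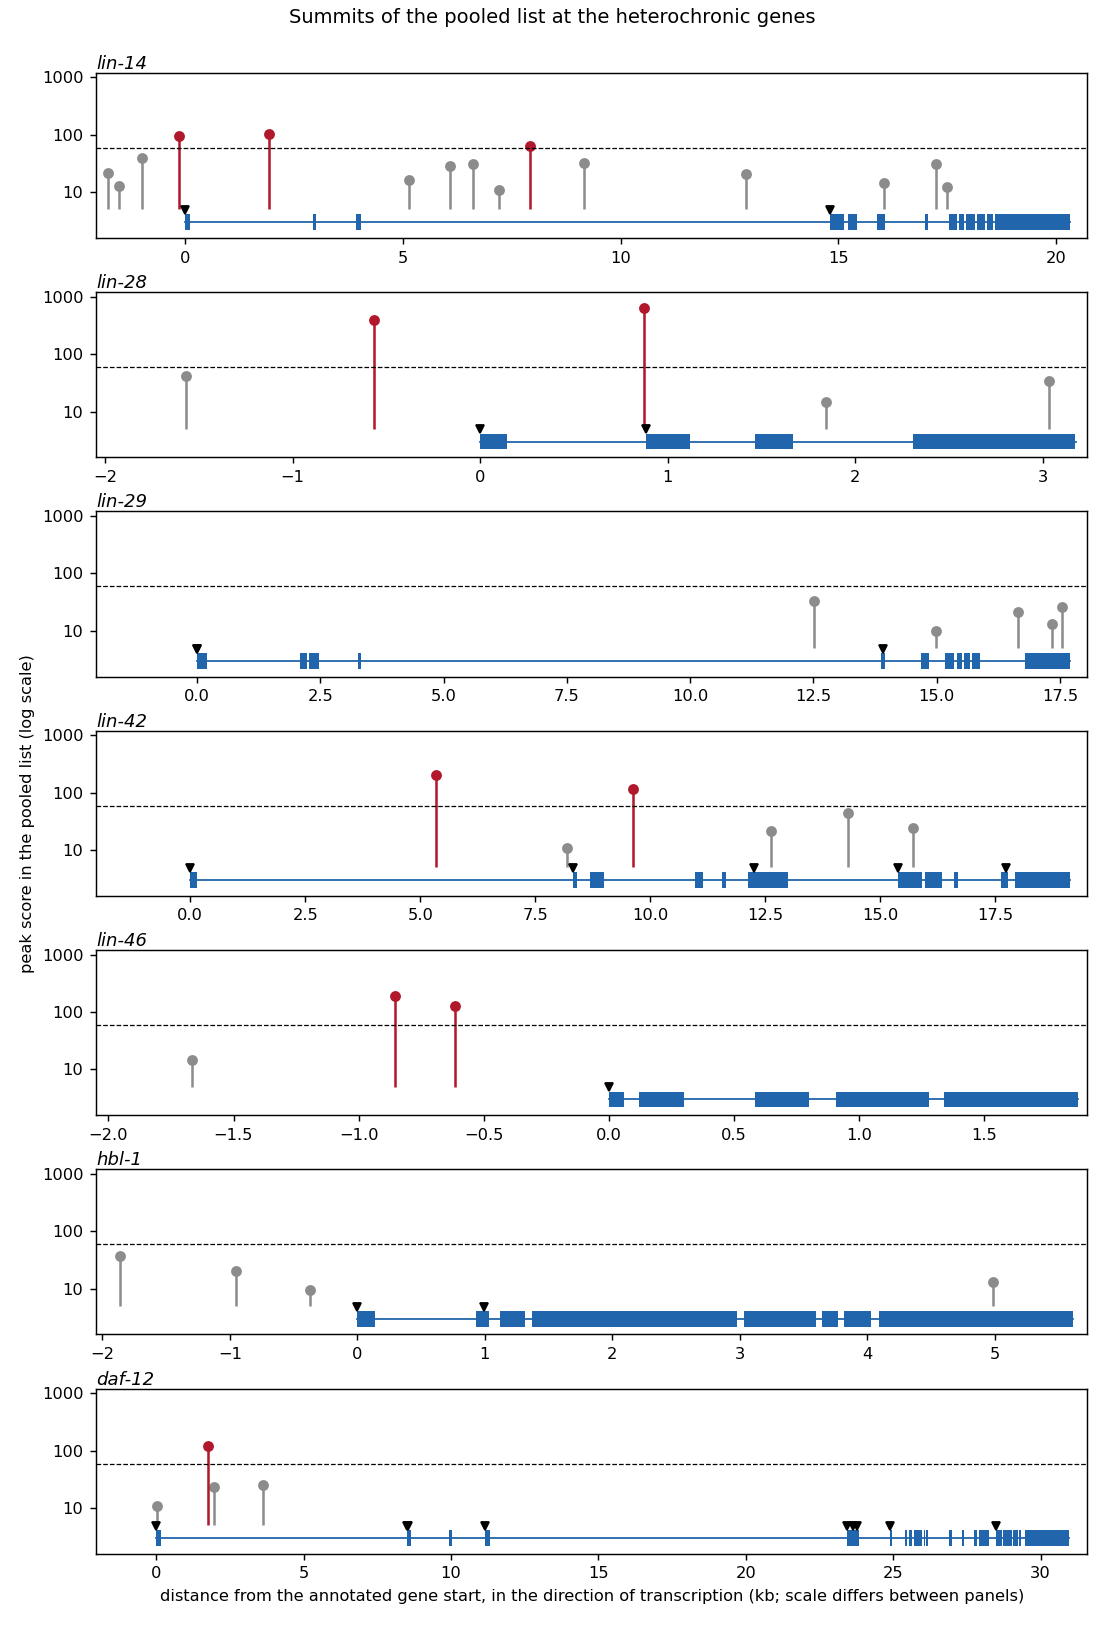
Each panel shows 1 gene with its exons as blue boxes, its annotated transcript starts as black triangles, and the summits of the pooled list as stems whose height is the peak score on a log axis, against the distance from the gene start in kb. Red summits belong to the IDR set and grey ones do not, and the dashed line is the lowest score in the IDR set, 59.6; the 10 red summits lie mostly inside introns or upstream, and lin-29 and hbl-1 have grey summits only.

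The sequences below are those under the summits, which show what the DNA at these sites holds. They are ce11 reference sequence, 5′ to 3′ on the strand of the gene. Capitals in the lin-14 and daf-12 lines mark matches to the E2F consensus (TTCCCGC or TTCGCGC, and with a different centre TTGCCGC or TTGGCGC), to the cell cycle genes homology region or CHR (TTCGAA or TTTGAA), or to the sequence CTGCGTCTC, each on either strand. The first line runs from the left edge of the lin-14 promoter peak past its summit (chrX:11465229-11465489, plus strand), with an E2F match read on the minus strand. The second is the first intron of lin-14 (chrX:11467411-11467571, plus strand), with a CHR match that reads the same on both strands. The third is the first intron of daf-12 (chrX:10637572-10637732, plus strand), with CTGCGTCTC read on the minus strand and then an E2F match.
lin-14 promoter: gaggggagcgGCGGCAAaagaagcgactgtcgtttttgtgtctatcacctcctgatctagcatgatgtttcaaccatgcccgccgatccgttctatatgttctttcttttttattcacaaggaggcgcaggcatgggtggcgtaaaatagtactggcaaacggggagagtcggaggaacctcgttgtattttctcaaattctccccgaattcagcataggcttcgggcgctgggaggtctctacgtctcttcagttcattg
lin-14 intron 1: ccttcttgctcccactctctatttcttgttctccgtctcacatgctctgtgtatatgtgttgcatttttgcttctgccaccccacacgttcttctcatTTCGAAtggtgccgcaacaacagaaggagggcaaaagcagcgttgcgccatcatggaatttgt
daf-12 intron 1: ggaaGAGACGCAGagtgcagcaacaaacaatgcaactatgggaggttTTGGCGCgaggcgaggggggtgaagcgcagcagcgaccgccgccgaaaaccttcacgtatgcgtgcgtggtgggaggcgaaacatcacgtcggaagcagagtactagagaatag

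The next lines show both IDR summits of lin-42, each with CTGCGTCTC in capitals in one or the other orientation, and the region that spans both summits of lin-46, where the capitals mark a run of 12 bases that occurs once in each orientation. They cover chrII:1246941-1247101 and chrII:1242657-1242817 on the minus strand, and chrV:12967990-12968285 on the plus strand.
lin-42 intron 1: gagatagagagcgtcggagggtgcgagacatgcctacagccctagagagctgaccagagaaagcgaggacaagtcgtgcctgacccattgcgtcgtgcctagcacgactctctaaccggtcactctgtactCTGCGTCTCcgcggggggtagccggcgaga
lin-42 intron 3: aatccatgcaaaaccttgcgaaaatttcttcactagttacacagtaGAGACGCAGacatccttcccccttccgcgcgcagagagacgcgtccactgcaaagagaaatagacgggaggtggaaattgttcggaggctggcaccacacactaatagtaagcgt
lin-46 upstream: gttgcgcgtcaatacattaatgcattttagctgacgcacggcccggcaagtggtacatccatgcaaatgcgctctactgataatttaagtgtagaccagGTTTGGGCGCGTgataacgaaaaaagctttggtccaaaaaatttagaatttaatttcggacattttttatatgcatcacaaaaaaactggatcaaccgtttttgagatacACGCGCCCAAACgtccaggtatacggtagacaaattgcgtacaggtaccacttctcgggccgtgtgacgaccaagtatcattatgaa

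The genes that promote early larval fates differed from each other. The BEN-domain transcription factor gene lin-14 (WBGene00003003, X:11465560-11485871, plus strand) had 3 IDR summits and 12 weaker pooled ones. Its promoter summit stood 151 bp before the start (peak X:11465229-11465588), with a pooled score of 95.9, and 37.5 in replicate 1 and 59.6 in replicate 2. The highest of the 3 lay 1931 bp into the gene in its first intron of 2.82 kb, with a pooled score of 103, and 37.6 in replicate 1 and 61.9 in replicate 2. These summits had nearly the same score in each list. The last lay 7915 bp into the gene in the third intron, of 11.2 kb, and scored 63.4, close to the lowest IDR score of 59.6. It scored 13.5 in replicate 1, where it ranked 8341, and 48.1 in replicate 2, where it ranked 4318. Only the list of replicate 2 therefore placed this last summit among its 4835 highest peaks. All 3 summits of lin-14 scored below the median of the IDR set, 179.8. The relaxed summits outside the IDR set scored from 10.9 to 39.9, the highest of them 989 bp upstream of the gene start.

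The strongest summits of the 7 genes were at lin-28 (WBGene00003014, I:8407630-8410804, minus strand), which encodes the RNA-binding protein that blocks maturation of the let-7 microRNA. The higher one lay in the first intron, 872 bp into the gene, with a pooled score of 636 and a rank of 890 among the 4835 IDR peaks. It scored 268 in replicate 1 and 371 in replicate 2, and the replicate summits lay within 3 bp of the pooled one. Ensembl annotates a second, shorter transcript of lin-28, and this summit lay 12 bp upstream of that transcript's start. The other stood 567 bp before the start, just outside the promoter window, with a pooled score of 395, and 164 in replicate 1 and 229 in replicate 2. Both were high within the IDR set, with 18.4% and 27.5% of IDR peaks ranked above them. With every annotated transcript start given a promoter window, lin-28 joined lin-14, so 2 of the 7 genes had an IDR summit at a start, beside 16.3% of all protein-coding genes counted the same way. A stronger IDR peak nearby, with a score of 2269.7, lay 862 bp past the end of lin-28 and 60 bp from the start of the neighbouring gene F02E9.1.

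At hbl-1 (WBGene00001824, X:5822142-5827755, plus strand), the Hunchback-like zinc finger gene, the pooled list held 4 summits and none reached the IDR set. The highest was 1860 bp before the start, with a pooled score of 36.6 and a −log10 q of 2.46, against 4.04 for every peak of the IDR set. It scored 11.6 in replicate 1 and 22.4 in replicate 2, with ranks of 10341 and 7142, so both replicate lists held it below their 4835 highest peaks. Another, 368 bp before the start, scored 9.43 in the pooled list and 13.2 in replicate 1, and had no match within 100 bp in replicate 2. With the scores at hand, an IDR-level peak was not detected at hbl-1, and its absence in particular cells cannot be judged from whole larvae.

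Both IDR summits of lin-46 (WBGene00003031, V:12968855-12970730, plus strand) lay upstream, 855 bp and 615 bp from the gene start. The summit further away had a pooled score of 194, and 74.4 in replicate 1 and 126 in replicate 2. The nearer had a pooled score of 129, and 30.2 in replicate 1 and 33.4 in replicate 2. The first was higher than the second in all 3 lists. The matched summits lay 92 bp and 77 bp from the pooled ones in replicate 1, and 4 bp and 10 bp in replicate 2. With the replicate 1 summits that far off, its scores may not belong to the same peaks. Both lie in the promoter window of the divergent protein-coding gene R186.8, 18 bp and 258 bp from its start, so they cannot be assigned to lin-46 rather than to its neighbour by position. The summits are 240 bp apart and share the 12-base run GTTTGGGCGCGT, which stands in opposite orientations at V:12968089-12968100 and V:12968199-12968210. Among 68 neighbouring pairs of IDR summits 201 to 500 bp apart, 22.1% shared an inverted run at least as long within 100 bp of their summits, so such a run is not rare between close peaks. A further IDR peak with a score of 223 lay 44 bp past the end of lin-46, in the promoter window of pnn-1.

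The hormone receptor gene daf-12 (WBGene00000908, X:10635908-10666875, plus strand) is the longest of the 7 genes, with 9 distinct annotated starts, and had 1 IDR summit. It lay 1744 bp into the gene in a first intron of 8.35 kb (peak X:10637472-10637831), with a pooled score of 122, and 40.4 in replicate 1 and 79.4 in replicate 2. The pooled and replicate summits lay within 4 bp of each other. At the gene start itself a summit 34 bp inside the gene scored 10.7, with a −log10 q of 0.07. The pooled summit furthest into the gene lay at 3610 bp, and all the other annotated starts lie beyond it.

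The Period-related gene lin-42 (WBGene00018572, II:1233236-1252359, minus strand) had 2 IDR summits, both intronic. The higher lay 5338 bp into the gene in its first intron of 8.17 kb (peak II:1246841-1247200), with a pooled score of 205, and 65.7 in replicate 1 and 136 in replicate 2. The lower lay 9622 bp into the gene in the third intron (peak II:1242557-1242916), with a pooled score of 114, and 21.6 in replicate 1 and 89.6 in replicate 2. The lower summit ranked 5042 in replicate 1 and 2959 in replicate 2, so its place in the IDR set rests more on replicate 2. Shorter transcripts start inside lin-42, and the higher summit lay 2986 bp upstream of the nearest of these starts. The next summit, 14311 bp into the gene, scored 44.8 and was the highest-scoring one at any of the 7 genes to fall outside the IDR set.

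At lin-29 (WBGene00003015, II:11917642-11935343, minus strand), which encodes the zinc finger factor of the larval-to-adult switch, 5 pooled summits were found and none was in the IDR set. The highest scored 32.7 in the pooled list, 16.1 in replicate 1 and 16.3 in replicate 2, with a pooled −log10 q of 1.95. It lay 12502 bp into the gene, in the fourth intron, and 1403 bp upstream of the start of a shorter annotated transcript. None of the 5 lay upstream of this position, so the gene start, the 2000 bp before it and most of the gene held no pooled summit. The nearest IDR peak, with a score of 109, lay 1270 bp past the gene end, in the promoter window of hmg-12, a gene that overlaps the end of lin-29.

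The replicates ranked most of these summits alike. All 10 IDR summits had a summit within 100 bp in both replicate lists, 8 were among the 4835 highest peaks of replicate 1 and 9 among those of replicate 2, and 7 were so in both. The log2 ratio of the replicate 2 score to the replicate 1 score had a median of 0.96 and an SD of 0.54 over all IDR peaks found in both lists (n = 4718). Because the lists may differ in scale, a ratio above 0 is not read as stronger binding in replicate 2, and each ratio was read only by its place among all the others. The 10 ratios ran from 0.14 at the nearer lin-46 summit to 2.05 at the lower lin-42 summit. The former was below the 5th percentile of all matched peaks, 0.16, and the latter above the 95th, 1.89. At that lin-46 summit the replicate 1 match lay 77 bp away, so whether its ratio compares the same peak is not certain. The ratio at the weakest lin-14 summit was 1.83, and the other 7 ratios lay between 0.47 and 1.05. The median pooled score of the 10 summits was 126. That of 1057 IDR peaks in gene bodies outside all promoter windows was also 126, and that of 2401 IDR peaks in promoter windows was 293. Of the 10 summits only 6 are intronic and the others lie upstream of the gene start, so these medians are of unlike sets.

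**Figure D2:**
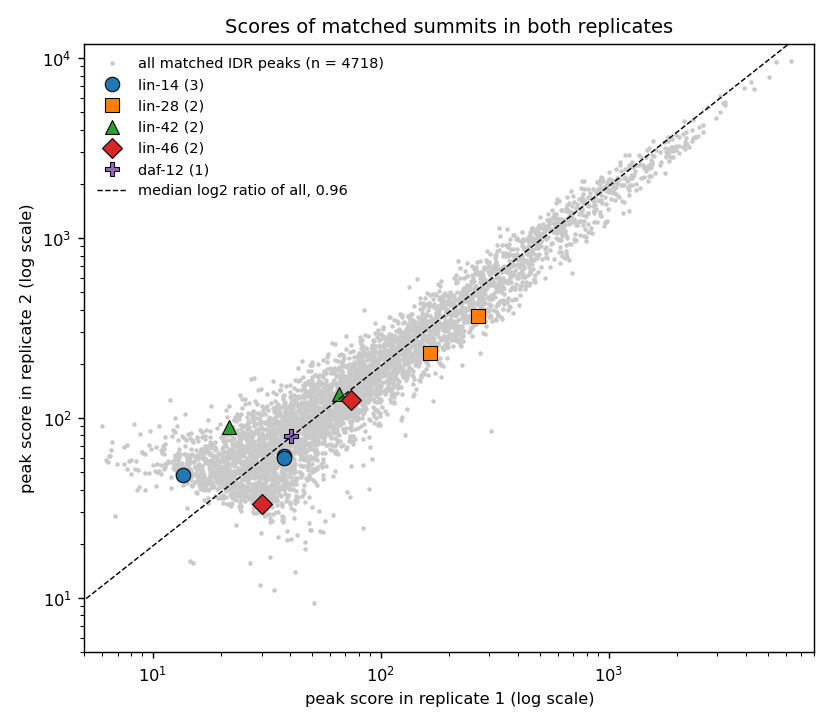
Scores of matched summits in replicate 1 (x axis) and replicate 2 (y axis), both on log axes; grey points are 4718 IDR peaks matched in both lists and coloured symbols the 10 summits of the heterochronic genes, with the dashed line at the median log2 ratio of 0.96. The lower lin-42 summit and the weakest lin-14 summit lie above the line, and the nearer lin-46 summit below it.

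Long genes offer more room for a summit, and 4 of the 7 genes are in the longest of 10 classes of equal size by interval length. Intervals of 8.77 kb or more, as in lin-14, lin-29, lin-42 and daf-12, held an IDR summit in 45.4% of protein-coding genes. The share was 36.5% in the class that holds hbl-1, 27.1% in that of lin-28 and 22.8% in that of lin-46. The share with a summit in the promoter window ranged less widely, from 10.6% in the shortest class to 19.9% in that of hbl-1 and 19.2% in the longest. Per kb of interval, IDR summits numbered 0.516 at lin-46, 0.386 at lin-28, 0.134 at lin-14, 0.0947 at lin-42, 0.0303 at daf-12, and 0 at lin-29 and hbl-1. Both lin-46 summits also lie in the promoter window of R186.8. Over the nuclear genome the density was 0.0482. Every interval includes 2000 bp upstream, and 2401 of the 4835 IDR peaks lay in promoter windows. The genome density is therefore not a like background for short intervals, and none was counted over all gene intervals. The density at daf-12 was below that of the genome, although close to the 0.0254 per kb of the X chromosome. On X, which holds lin-14, hbl-1 and daf-12, 14.2% of protein-coding genes had an IDR summit in the interval; 2 of the 3 did. With the relaxed pooled list, all 7 genes had a summit in the interval, beside 56.4% of all protein-coding genes. That list held 0.299 summits per kb over the nuclear genome, so long intervals readily hold one. No share by length was counted for it.

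**Figure D3:**
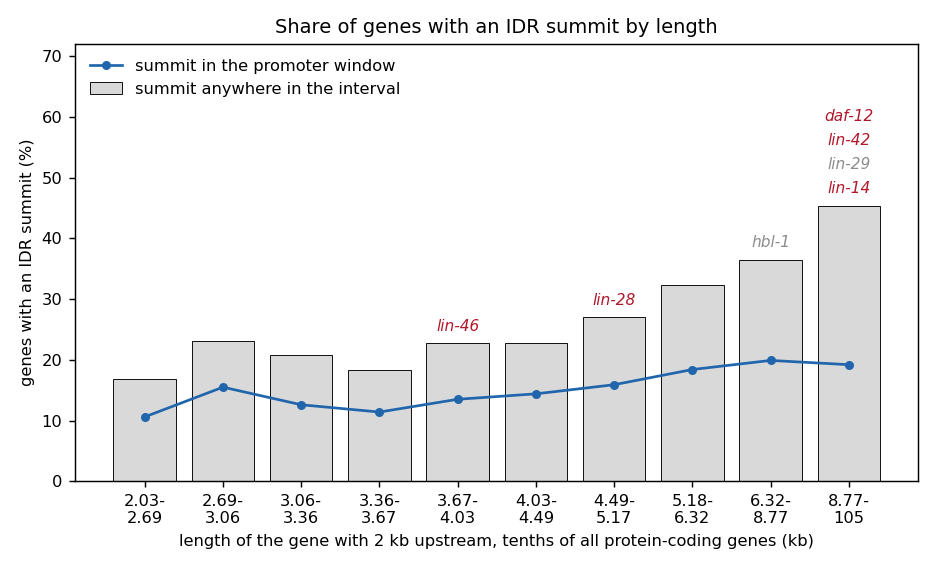
Bars give the percentage of protein-coding genes with an IDR summit in the interval, and the line the percentage with one in the promoter window, in 10 classes of interval length (kb). Gene names stand above the class they belong to, red with and grey without an IDR summit; the bars reach 45.4% in the longest class.

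The summits were searched for the E2F consensus and the CHR. Within 100 bp of the summit, the E2F consensus was found at 1 of the 10 summits, at daf-12, 30 bp from it. It was found at 17.5% of all 4835 IDR summits, and at 303 of the 2418 lower-scoring ones, to which 6 of the 10 belong, so 1 of 10 is near the background. The share was 6.8% in windows of the same 201 bp placed 500 bp to either side, and 6.29% for protein-coding genes in the 201 bp up to the gene start. A further match stood at lin-14, 167 bp upstream of the promoter summit and inside the peak. The CHR was found at 2 of the 10, 20 bp from the summit in the first intron of lin-14 and 12 bp from that in the first intron of lin-28, beside 44.8% of all IDR summits, 37.6% of the lower-scoring ones, and 54.2% and 52.7% of the flanking windows. Of the 10 windows, 9 were richer in G and C than the median IDR summit, 42.3%, with a range of 40.8% to 63.2%; the highest was that of the first intron of lin-42.

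The 9-base sequence CTGCGTCTC, looked for after the windows had been read, was present at 3 of the 10 summits, both of lin-42 and that of daf-12. It lay 55 bp and 30 bp from the lin-42 summits and 72 bp from the daf-12 summit. Among all IDR summits, 15.9% had it within 100 bp, against 0.993% of the windows to either side and 2.34% of the stretches before gene starts. The share was 16.5% among the 2418 lower-scoring IDR peaks and 15.3% among the 2417 higher-scoring ones. A match says only that these letters are present.

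Annotated non-coding RNAs lay under some of the intronic summits. The summit in the first intron of lin-14 was inside T25C12.7, a non-coding RNA gene of 355 bp on the opposite strand. The higher lin-42 summit was inside F47F6.13 and F47F6.15, of 78 bp and 143 bp and on opposite strands. These make 2 of 6 intronic summits, beside 8.99% of 1057 IDR summits in protein-coding genes outside promoter windows. The 1057 are not limited to introns, so the sets are unlike.

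The wider heterochronic pathway was counted from a list of 33 further genes, of which 32 matched a gene name; let-7 did not. Of the 27 protein-coding genes, 18 (66.7%) had an IDR summit in the interval, beside the 26.6% of all protein-coding genes, and 6 had one in the promoter window. The list holds many long genes, was not matched for interval length, and was chosen with earlier results of these data known. Among all protein-coding genes the share was 36.5% and 45.4% in the longest classes, so 26.6% is too low a background for it. The 5 that are not protein-coding, among them lin-4, the microRNA gene that represses lin-14, and mir-48 of the let-7 family, had none. Of them 4 are microRNA genes with intervals as short as those of the shortest class of protein-coding genes, 16.8% of which had an IDR summit, so a count of 0 of 5 is near that background. With 5000 bp upstream, mir-84 had one; it is named after its values were seen. The highest pooled summit at lin-4 scored 16.8. Among the classes listed, genes of RNA regulation had IDR summits most often, 11 of 13, beside the 26.6% of all protein-coding genes. The 13 include lep-5, a non-coding RNA gene also counted among the 5. The classes were not matched for interval length and come from the same chosen list, so no trait of RNA regulators is read from this count. The strongest summit of the class was at nhl-2, a microRNA cofactor gene, 837 bp upstream of its start. It had a pooled score of 2539.5, and 1161 in replicate 1 and 1373 in replicate 2. The summit at lep-2, a regulator upstream of lin-28, lay 105 bp upstream of the start with a pooled score of 1447, and 468 in replicate 1 and 972 in replicate 2. The exonuclease gene xrn-2 had 2 IDR summits. The higher lay 1221 bp upstream and in the promoter window of Y48B6A.1, with a pooled score of 1419, and 459.8 in replicate 1 and 959 in replicate 2. The other lay in the promoter window of xrn-2 itself.

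Regulators of transcription, moulting and kinase signalling had IDR summits in 5 of 9 genes and the dafachronic acid pathway in 2 of 6, beside the 26.6% of all protein-coding genes. The share of 33.3% in the dafachronic acid pathway is near that background, which was not matched for interval length. In the latter group the summit of strm-1, a sterol methyltransferase gene, scored 2483, 846 in replicate 1 and 1645 in replicate 2, and lay in the promoter window of cic-1. The highest of 5 IDR summits of din-1, a DAF-12 co-repressor gene, scored 475 and lay 751 bp upstream of its start. The 4 genes of the pathway without an IDR summit, daf-9, daf-36, dhs-16 and hsd-1, act in hormone synthesis and had no pooled summit in the interval either. Among all protein-coding genes 56.4% had a pooled summit, but that share includes genes with an IDR summit. It is therefore not a like background for genes picked for lacking one, and no trait of these 4 genes is read from it.

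**Figure D4:**
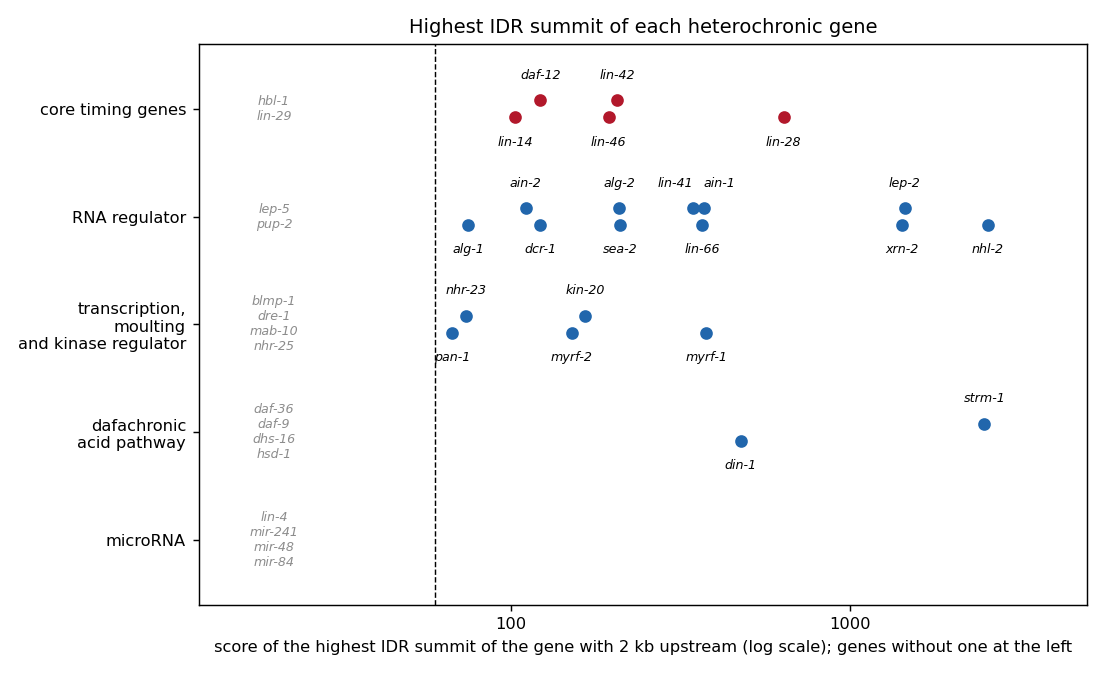
Each point is the score of the highest IDR summit in a gene's interval (log axis), for the 7 core timing genes in red and the other genes of the pathway in blue by class; genes without an IDR summit are named at the left in grey, and the dashed line is the lowest IDR score, 59.6. Scores of the 7 core genes reach 636 at lin-28, and those of nhl-2, strm-1, lep-2 and xrn-2 exceed 1000.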

How the data were processed

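The sources used here name no aligner or peak caller. The authors deposited ce11 peaks, each with a peak score of unstated scale, a −log10 q and a summit offset in bp. Per the text deposited with the samples, relaxed lists were made for each replicate and for the pooled reads, with a control, and the IDR set was derived from them. The ce10 lists were not used. Depth is unknown, and no control track was analysed here.

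Genes, transcripts and exons came from Ensembl release 115 on WBcel235, the assembly of ce11, and sequence from the RefSeq copy of that assembly, with Python 3.11.15, numpy 2.4.6 and pandas 2.3.3. A summit is the base at start plus offset. Summits were matched between lists within 100 bp, taking the highest-scoring match. Counting and motif steps were tested on simulated data. With 1 group and 2 replicates no test was made; all counts are descriptions. The genes and lists were chosen with earlier results of these data known. All 7 genes are named with every IDR summit; of the wider list, the 5 with the highest IDR summit and the first 2 matched without one, and genes whose promoter window holds a summit. Others named (F02E9.1, hmg-12, pnn-1, the non-coding RNAs, daf-9, daf-36, dhs-16 and hsd-1) and CTGCGTCTC were chosen after their values were seen. The alternatives were other upstream reaches, windows, starts and match distances, peak overlap, the 2417 highest-scoring IDR peaks only, and each replicate alone.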

Additional observations from a re-analysis of the deposited data

How the results depend on the processing

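The count of 5 of 7 genes with an IDR summit in the interval stayed at 5 with 1000 bp or 5000 bp upstream and when any overlap of the peak counted. With the top 4835 peaks of 1 replicate it ranged from 5 to 5, with the same genes. With only the 2417 highest-scoring IDR peaks it was 3 (lin-28, lin-42 and lin-46). The promoter window count of 1 was 2 with any annotated transcript start, 3 with a window of 1000 bp upstream to 500 bp downstream (lin-46 and lin-28 joining lin-14) and 0 with the 2417 highest. For the wider list, 18 of 32 became 17 with 1000 bp upstream and 22 with 5000 bp upstream. It was 11 with the 2417 highest, and 16 to 18 with 1 replicate. The E2F consensus was present in 2 of the 10 peaks when the whole peak was searched. Measured from the nearest transcript start, the highest summit lay at -12 bp for lin-28, -1403 bp for lin-29 and -2986 bp for lin-42, upstream rather than inside. This follows from the shorter transcripts annotated in these genes. A match distance of 50 bp left 8 of 10 summits matched in both replicates, and the summits lost were both at lin-46. No paired analysis was possible because there is 1 group. Unknown depth limits what can be said of low scores.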
